A study of Mus musculus with 6 samples.

Results

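The Kruppel-like factors (KLFs) described here are 10 transcription factor genes, Klf2, Klf3, Klf4, Klf5, Klf6, Klf7, Klf9, Klf10, Klf13 and Klf15, taken by symbol from the 21603 Ensembl genes that each sample's table lists. All 10 were measured in each of the 6 samples and all 10 passed the filter for low values. The samples are ribosome-bound RNA of cells in which Pdgfrb(BAC)-CreERT2 had been active, prepared from lungs of C57BL/6 mice at postnatal day (P) 8. In the RiboTag approach, Cre switches on a haemagglutinin (HA) tag on the ribosomal protein RPL22, and anti-HA pulldown then recovers RNA from the tagged cells, here mostly pericytes, the mural cells of capillaries. The 3 controls carried Pdgfrb(BAC)-CreERT2, the RiboTag allele and 1 floxed copy of each of Yap1 and Wwtr1 (labelled Yap1+/-;Wwtr1+/-). The 3 Yap1,Wwtr1 iPCKO samples carried the same driver and tag with both copies of Yap1 and Wwtr1 floxed (labelled Yap1-/-;Wwtr1-/-). Tamoxifen was given to both groups in the first days after birth, so that neither group is untreated and the controls have themselves lost 1 copy of each gene in recombined cells. The driver is a transgene, so the tagged cells are those in which it was active when tamoxifen was given, and the labels name no separate litters or batches. Values are RPKM as the authors computed them, the reads of a gene divided by its exon length in kilobases and scaled to the mapped reads of the library.

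KLFs bind CACCC and GC-rich elements in promoters through zinc fingers at their C-terminal end, and differ mainly in the cofactors that their N-terminal parts recruit. Klf2, Klf4, Klf5, Klf6 and Klf7 belong to a branch that mostly activates transcription through acetyltransferases. Klf3 represses through CtBP proteins, Klf9, Klf10 and Klf13 through the Sin3-histone deacetylase complex, and Klf15 stands outside these branches. In vessels, Klf2 and Klf4 are best known as flow-induced factors of quiescent endothelium, Klf4 and Klf5 as regulators of the smooth muscle state, and Klf6 as an early response gene of injured tissue. YAP1 and TAZ, the product of Wwtr1, act on transcription through TEAD proteins.

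The question put to the data was whether the levels of these factors differed between Yap1,Wwtr1 iPCKO and control samples. No member passed the thresholds of an adjusted p-value below 0.01 with an absolute log2 fold change above 0.5 (0 of 10), while 817 of 12034 tested genes did (6.79%, with 4.11% higher and 2.68% lower in iPCKO samples; limma on log2(RPKM + 0.1), Benjamini-Hochberg adjustment over all genes tested). At an adjusted p below 0.05 and any size of change, the count was likewise 0 of 10, against 15.2% of all tested genes. Klf6 and Klf7 had lower means and Klf10 a higher mean in iPCKO samples at an unadjusted p below 0.05, which makes 3 of 10 members against 29.7% of all tested genes, so the members stood at the background. With each sample left out in turn, between 0 and 2 members were called, and the value of 2 came from the fit without control 1, in which Klf2 and Klf6 were lower in iPCKO samples and 573 of 12034 genes were called (4.76%). At an adjusted p below 0.05 and any size, 4 of 10 members passed in that fit and 0 or 1 without any other sample. With weights on the samples, 5 of 10 did. The share over all tested genes at this threshold was not taken in those fits, so these counts cannot be set against the 15.2% of the main fit. At the thresholds of the main test, the fit with sample weights called 2 of 10 members and 13.2% of all tested genes. The fold changes of 6 members were positive and of 4 negative, with a median of 0.04 on the log2 scale, against 0.00 over all tested genes. Their median absolute log2 fold change was 0.24, against 0.17 over all tested genes.

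The libraries came from an implied 14.2 to 39.6 M reads, read from the steps that single reads leave in low RPKM values, with overlapping ranges in both groups (17.4 to 34.7 M in controls). Yap1 stood at 13.21, 11.49 and 12.35 RPKM in controls and at 5.76, 5.83 and 5.25 RPKM in iPCKO samples, a drop that passed the test (log2 fold change -1.12, adjusted p = 0.000175, limma). Wwtr1 stood at 71.25, 53.78 and 56.13 RPKM in controls and at 63.5, 60.27 and 62.18 RPKM in iPCKO samples (log2 fold change 0.05, adjusted p = 0.822). A value over a whole gene does not show whether a floxed part of it is missing, so the level of Wwtr1 checks nothing about its deletion. Pdgfrb, the gene whose promoter drives the Cre, lay between 1193 and 1666 RPKM in all 6 samples. RNA of Y-linked genes was found in controls 1 and 3 (35.02 and 40.79 RPKM summed over 4 genes) and stayed under 0.08 RPKM in control 2 and the 3 iPCKO samples. Sex and genotype are thus partly confounded, and their parts cannot be fully told apart in these samples. Whether samples with the same number share a litter is not given in the sources used here. The main fit treated the 6 samples as independent, and its p-values take no account of shared litters.

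The promoters of 3 members are shown because they belong to the members with the largest negative fold changes, Klf6, Klf2 and Klf7. Klf2 and Klf6 are also the members that lay furthest below the other controls in control 1, as described further on. The windows are the 250 bases before the RefSeq start on GRCm38.p6, each read on the strand of its gene. RefSeq and GENCODE M21 differ in these starts. The Klf7 window lies within the gene span of GENCODE, which begins at 64122282 on the - strand. The ends of the Klf2 and Klf6 windows reach past the GENCODE starts, 72319033 and 5861482. Capitals mark matches, on either strand, to CCACCC (the core of a KLF element, GGGTGG on the other strand), CACGTG (the E-box bound by clock factors) or the MEF2 element.
Klf2 (chr8:72318812-72319061, + strand): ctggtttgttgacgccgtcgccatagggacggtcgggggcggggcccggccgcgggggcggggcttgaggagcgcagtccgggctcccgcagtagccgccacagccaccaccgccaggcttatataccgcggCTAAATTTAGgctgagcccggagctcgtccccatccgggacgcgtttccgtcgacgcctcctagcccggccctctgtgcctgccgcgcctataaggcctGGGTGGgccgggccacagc
Klf6 (chr13:5861239-5861488, + strand): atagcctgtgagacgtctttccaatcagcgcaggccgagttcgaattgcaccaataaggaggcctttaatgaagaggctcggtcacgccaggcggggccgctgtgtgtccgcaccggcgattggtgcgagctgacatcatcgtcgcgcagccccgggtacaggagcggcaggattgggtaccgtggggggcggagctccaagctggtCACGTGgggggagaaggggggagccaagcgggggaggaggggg
Klf7 (chr1:64121390-64121639, - strand): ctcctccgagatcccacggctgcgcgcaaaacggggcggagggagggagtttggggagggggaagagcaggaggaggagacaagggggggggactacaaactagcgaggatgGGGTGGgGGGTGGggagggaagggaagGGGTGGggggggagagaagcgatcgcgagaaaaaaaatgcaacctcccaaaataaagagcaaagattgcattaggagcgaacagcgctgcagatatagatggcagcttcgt
The Klf2 window holds a MEF2 element at -118 to -109 and a KLF core at -19 to -14, counted from the start. The Klf6 window holds an E-box at -43 to -38, and the Klf7 window 3 KLF cores between -138 and -106. Klf2 and Klf6 thus shared none of the motifs searched in these windows.

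RefSeq windows were found for 8 of the 10 members, all but Klf5 and Klf10. CCACCC was present in 4 of the 8 (Klf2, Klf3, Klf7 and Klf13), and in 28.1% of 32851 promoter windows of the same length. CACGTG was present in 3 of the 8 (Klf4, Klf6 and Klf15) against 6.02%, and the MEF2 element in Klf2 against 2.92%. The TEAD element GGAATG, which is found in 12.6% of all windows, was in none of the 8. The AP-1 element (TGACTCA or TGAGTCA, 4.46%), the cAMP response element TGACGTCA (1.55%), the longer KLF element CCACACCC (3.20%), the hexamer AGAACA, a partial glucocorticoid receptor site (16.1%), the TATA box TATAAA (12.4%) and the CArG element of serum response factor (1.47%) were likewise without a match. Elements outside these windows were not searched, and the TEAD site of Angpt1 that the paper tested lies much further upstream. With 8 windows, the missing matches do not show whether TEAD proteins act on these genes. The member windows were 59.2% to 78.4% G and C, against a median of 52.4% over all windows.

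In the control samples, Klf6 had the highest mean level, 35.32 ± 8.998 RPKM (SD, n = 3), followed by Klf3 with 25.59 ± 1.659 RPKM, Klf2 with 24.25 ± 7.576 RPKM, Klf9 with 20.11 ± 4.009 RPKM and Klf13 with 18.62 ± 1.179 RPKM. The ranges of neighbours among these 5 overlapped, while Klf6 lay above all values of Klf9 and Klf13, and Klf3 above all values of Klf13. Klf13 lay apart from Klf10 (15.21 ± 1.3 RPKM), and Klf10 overlapped with Klf4 (14.89 ± 0.9469 RPKM). Klf7 (10.01 ± 0.85 RPKM), Klf5 (2.489 ± 0.2636 RPKM) and Klf15 (1.621 ± 0.2806 RPKM) followed, each with a range of its own. In iPCKO samples, Klf3 ranked first, followed by Klf9 and Klf6, and the ranges of neighbours overlapped from Klf3 down to Klf2, which had gone from the third place to the sixth. Klf4, Klf7 and Klf5 kept the seventh, eighth and ninth places, and Klf15 the tenth, with a range that overlapped with that of Klf5. Summed over the 10 members, the level was 157.4, 172.4 and 174.6 RPKM in controls and 146.2, 158.3 and 162.7 RPKM in iPCKO samples, with overlapping ranges.

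**Figure D1:**
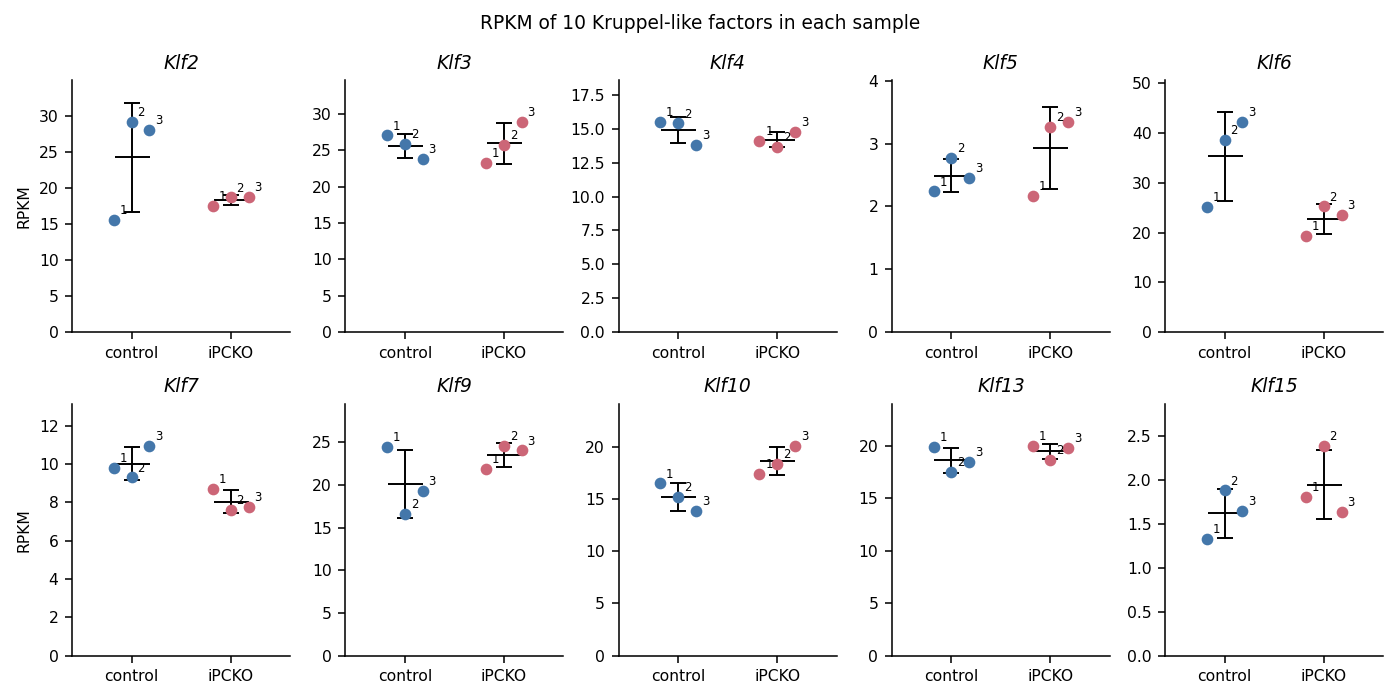
RPKM (linear axis from 0) of each of the 10 members in 3 control (blue) and 3 iPCKO (red) samples, with sample numbers beside the points; lines and bars are means and SDs. Klf7 (all iPCKO samples lower) and Klf10 (all higher) are the members whose groups do not overlap, and control 1 lies among or near the iPCKO samples for Klf2, Klf6 and Klf9.

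Klf6 (ENSMUSG00000000078, chr13:5861482-5870394, + strand), an activator of genes of tissue repair, had 25.14, 38.65 and 42.18 RPKM in controls and 19.34, 25.26 and 23.57 RPKM in iPCKO samples. Controls 2 and 3 lay above every iPCKO sample, while control 1 lay just below iPCKO 2. The log2 fold change was -0.61 (standard error 0.19, 95% interval -1.04 to -0.17), which is 0.656 times the control level (0.485 to 0.887), with an adjusted p-value of 0.0673 (limma). This was the largest change among the 10 members, and the only one past 0.5 on the log2 scale. Without control 1, it was -0.84 with an adjusted p-value of 0.00755, which passed both thresholds, and over the other samples left out the value lay between -0.69 and -0.46, without a call. Klf7 (ENSMUSG00000025959, chr1:64029447-64122282, - strand), the closest relative of Klf6 and known from neuronal development, had 9.79, 9.29 and 10.95 RPKM in controls and 8.71, 7.61 and 7.77 RPKM in iPCKO samples. Here all iPCKO samples lay below all controls, as for 17.1% of tested genes in this direction. In either direction, the groups did not overlap for 2 of 10 members, against 35.5% of tested genes. Its log2 fold change was -0.31 (standard error 0.10, 95% interval -0.54 to -0.09, adjusted p = 0.0700, limma). Exons of Klf7 share 3196 bases with Gm26649, a lincRNA gene on the opposite strand that the tables do not list. The libraries were made with a stranded kit, but the strand setting of the counting is not given in the sources used here, so reads of this gene could not be told apart.

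Klf2 (ENSMUSG00000055148, chr8:72319033-72321656, + strand), the flow-induced factor of endothelium, had 15.52, 29.12 and 28.1 RPKM in controls and 17.52, 18.7 and 18.8 RPKM in iPCKO samples. Controls 2 and 3 lay above the iPCKO samples and control 1 below all of them. The log2 fold change was -0.35 (standard error 0.22, 95% interval -0.84 to 0.14, adjusted p = 0.321, limma), and without control 1 it was -0.64 with an adjusted p-value of 0.00348. Without control 2 it was -0.19 (adjusted p = 0.665) and without control 3 it was -0.21 (adjusted p = 0.657). Klf4 (ENSMUSG00000003032, chr4:55527143-55532466, - strand), which shares much of the endothelial role of Klf2 and also acts in smooth muscle and in reprogramming to pluripotency, had 15.48, 15.4 and 13.8 RPKM in controls and 14.11, 13.66 and 14.77 RPKM in iPCKO samples. The groups overlapped, and the fold change of -0.07 had a 95% interval of -0.27 to 0.13, so that a change of 0.5 on the log2 scale lies outside it. Klf4 did not show the gap between control 1 and the other controls that Klf2 showed, with control 1 at 106% of their mean against 54.2% for Klf2. Klf5 (ENSMUSG00000005148, chr14:99298691-99315036, + strand), an activator of growth genes in epithelium and smooth muscle, was low, with 2.24, 2.77 and 2.46 RPKM in controls and 2.17, 3.27 and 3.34 RPKM in iPCKO samples. Of the iPCKO samples, 1 lay below and 2 above all controls (log2 fold change 0.21, 95% interval -0.21 to 0.62, adjusted p = 0.495, limma).

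Klf3 (ENSMUSG00000029178, chr5:64803388-64832901, + strand), the CtBP-dependent repressor, was among the most abundant members and the least changed. It had 27.06, 25.91 and 23.79 RPKM in controls and 23.25, 25.74 and 28.86 RPKM in iPCKO samples, a complete overlap, with a log2 fold change of 0.02 (95% interval -0.22 to 0.25). Among factors that recruit Sin3, Klf10 (ENSMUSG00000037465, chr15:38291463-38300706, - strand), known as a TGF-beta-inducible early gene, had 16.51, 15.2 and 13.91 RPKM in controls and 17.44, 18.38 and 20.13 RPKM in iPCKO samples. All iPCKO samples lay above all controls, as for 18.3% of tested genes in this direction. The log2 fold change of Klf10 was 0.29 (standard error 0.10, 95% interval 0.07 to 0.52), 1.23 times the control level, with an adjusted p-value of 0.0806 (limma). Klf9 (ENSMUSG00000033863, chr19:23141226-23168134, + strand), which glucocorticoids and the clock induce in many tissues, had 24.48, 16.59 and 19.27 RPKM in controls and 21.89, 24.62 and 24.06 RPKM in iPCKO samples. Control 1 lay within the range of the iPCKO samples, and controls 2 and 3 below it. The log2 fold change of 0.24 (95% interval -0.07 to 0.56, adjusted p = 0.282, limma) was 0.39 without control 1 (adjusted p = 0.0414) and 0.11 without control 2 (adjusted p = 0.661). Klf13 (ENSMUSG00000052040, chr7:63886351-63938915, - strand), known from T cells and heart, had 19.88, 17.54 and 18.43 RPKM in controls and 20.01, 18.67 and 19.77 RPKM in iPCKO samples. It overlapped between groups with an interval of -0.13 to 0.26 around a log2 fold change of 0.07.

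Klf15 (ENSMUSG00000030087, chr6:90462576-90475238, + strand), a glucocorticoid-induced regulator of amino acid and glucose metabolism in muscle and liver, was the lowest member. It had 1.33, 1.88 and 1.65 RPKM in controls and 1.81, 2.39 and 1.64 RPKM in iPCKO samples, with a log2 fold change of 0.25 (95% interval -0.19 to 0.68, adjusted p = 0.433, limma). With the annotated exon length and the implied depth, these values stand for about 65 to 264 reads, so that counting alone gives an error of 12.4% in the shallowest library. Klf5 stands on about 229 to 673 reads and the other 8 members on about 494 or more, up to 11453 for Klf3. For Klf2, about 494 reads in the shallowest library give a counting error of 4.50%, while its controls had a coefficient of variation of 31.2% and its iPCKO samples one of 3.89%. Klf3 shares 404 exon bases with Gm20033, which lies on the opposite strand and is also not listed in the tables.

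**Figure D2:**
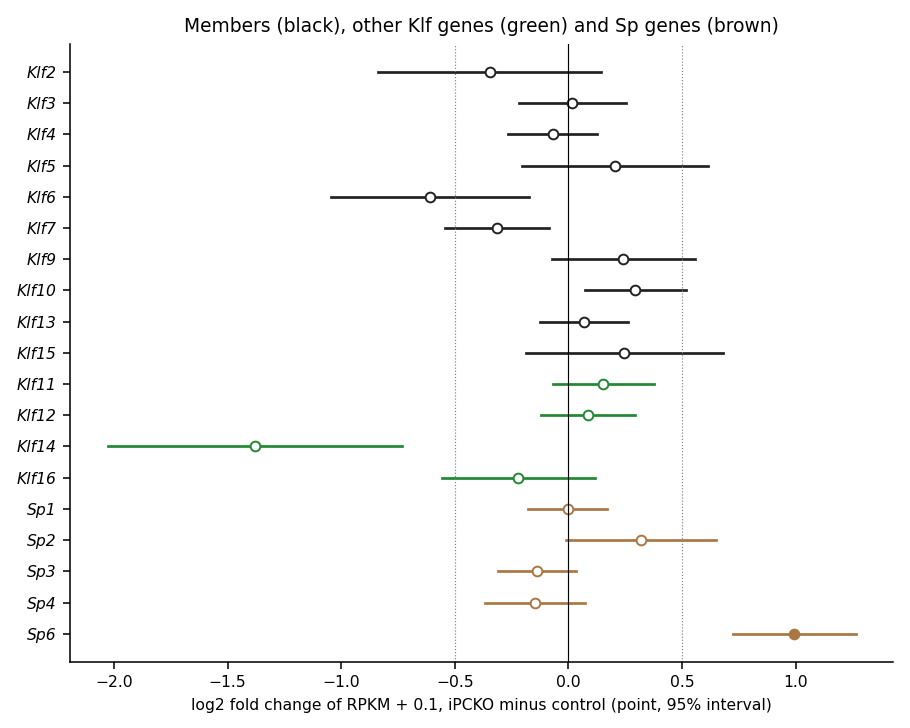
Log2 fold change of RPKM + 0.1, iPCKO minus control, with the 95% interval from limma, for the 10 members (black), 4 other Klf genes (green) and 5 Sp genes (brown) that were tested; dotted lines mark 0.5 in either direction, and filled points passed both thresholds. Sp6 is the gene shown that passed, the interval of Klf6 runs from -1.04 to -0.17, and those of Klf3, Klf4 and Klf13 lie within the dotted lines.

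Control 1 set the spread of several members. Its level was 54.2% of the mean of the other 2 controls for Klf2, 62.2% for Klf6 and 136% for Klf9. It was 74.9% for Klf15 and 85.7% for Klf5, against 96.7% for Klf7 and 109% for Klf3. On the log2 scale, control 1 was nearer to the mean of the iPCKO samples than to that of the other controls for 6 of 10 members (Klf2, Klf3, Klf6, Klf9, Klf10 and Klf13), compared with 44.4% of all tested genes. The same count was 3 of 10 for control 2 (33.7% of all) and 2 of 10 for control 3 (29.6%).

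Klf2 and Klf6 are often induced together with immediate early genes, the fast and transient response of cells to growth factors, stress or handling. In control 1, Fos was at 25.3% of the mean of controls 2 and 3, Egr1 at 29.9%, Nr4a1 at 36.6%, Atf3 at 43.9% and Dusp1 at 49.5%. The gap was smaller for Junb, Zfp36 and Ier2, at 83.0%, 83.5% and 85.4%. Jund (73.04, 43.66 and 37.14 RPKM in controls) and Ier3 (12.38, 9.79 and 9.02 RPKM) went the other way, with their highest control value in control 1. Of 18 tested immediate early genes, 14 had their lowest control value in control 1, which is 77.8% against 38.2% over all tested genes. Of the members, 4 had theirs there (Klf2, Klf5, Klf6 and Klf15), close to that background. The iPCKO samples did not share the low levels of control 1 in all of these genes. Fos had 2.89, 12.92 and 9.93 RPKM in controls and 20.48, 22.24 and 13.99 RPKM in iPCKO samples, so that all iPCKO samples lay above all controls. Dusp1, a phosphatase that ends MAP kinase signals, had 28.41, 60.11 and 54.56 RPKM in controls and 40.26, 42.63 and 28.27 RPKM in iPCKO samples, so that, as for Klf2, controls 2 and 3 lay above the iPCKO samples and control 1 did not. The part of handling, dissection time or sex in the values of control 1 was not tested.

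**Figure D3:**
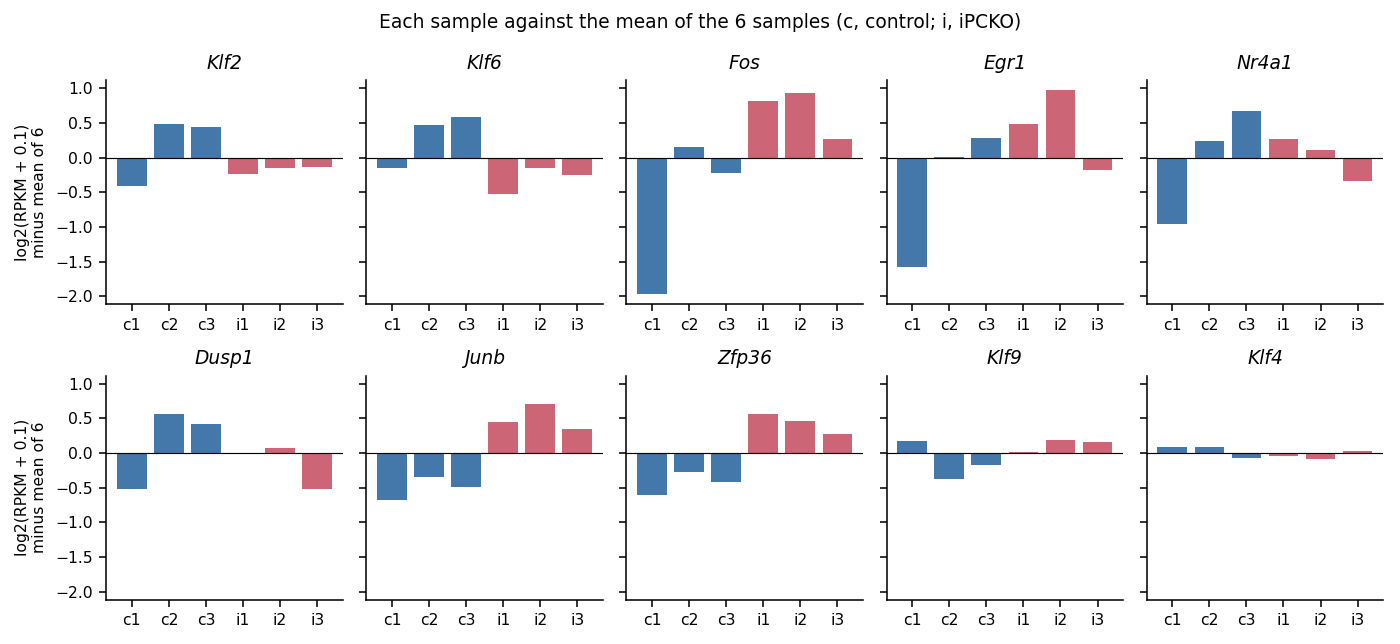
Log2(RPKM + 0.1) in each sample minus the mean of the 6 samples, for Klf2, Klf6, Klf9, Klf4 and 6 immediate early genes in controls (c1 to c3, blue) and iPCKO samples (i1 to i3, red). Control 1 lies below controls 2 and 3 for Klf2, Klf6 and the 6 immediate early genes, and above them for Klf9.

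Immediate early genes as a list had 5 of 18 tested genes higher and 0 lower in iPCKO samples, with a median log2 fold change of 0.16 (0.00 over all genes). Over all tested genes, 4.11% were called higher and 2.68% lower. The 5 were Junb with 12.99, 16.42 and 14.88 RPKM against 28.55, 34.09 and 26.46 RPKM, and Zfp36, Fosb, Egr3 and Ier2 with log2 fold changes of 0.87, 1.49, 2.10 and 0.71. Fosb and Egr3 passed the filter through their iPCKO samples alone, and 3 genes were called where 1 RPKM was required in all 6 samples. When single samples were left out, 2 (without iPCKO 2) to 4 (without iPCKO 3) of the 18 were called, with 3 in each of the other fits. Jund, Jun and Dusp1, the most abundant of the others, were not called.

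Of the genes that act upstream of Klf2 and Klf4, the MEK5-ERK5-MEF2 cascade induces both in endothelium, and the CCM proteins hold the cascade down. None of 11 tested genes of this list was called in either direction (median log2 fold change -0.08). Mapk7, which encodes ERK5, stood at 7, 7.37 and 7.45 RPKM in controls and 7.57, 7.02 and 7.12 RPKM in iPCKO samples. Krit1, which encodes the CCM protein KRIT1, had 7.94, 8.57 and 8.45 RPKM in controls and 6.5, 6.65 and 6.36 RPKM in iPCKO samples, without overlap (log2 fold change -0.35, adjusted p = 0.0249, limma). Mef2c lay lower without overlap (-0.24, adjusted p = 0.102) and Mef2d higher without overlap (0.29, adjusted p = 0.0537), both short of the thresholds in limma. The most abundant genes of the list, Heg1, Map3k3 and Mef2a, overlapped between the groups.

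Glucocorticoids induce Klf9 and Klf15. Of 14 tested genes of the glucocorticoid response, 1 was called, Fkbp5, a chaperone of the receptor, with 1.44, 1.62 and 1.27 RPKM in controls and 3.96, 5.46 and 6.21 RPKM in iPCKO samples (log2 fold change 1.76, adjusted p = 0.000426, limma). The receptor gene itself, Nr3c1, had 55.8, 52.78 and 56.47 RPKM in controls and 47.69, 43.71 and 42.45 RPKM in iPCKO samples (-0.30, adjusted p = 0.0477). Cebpb lay higher (0.76, adjusted p = 0.0127, limma) and Errfi1 lower (-0.51, adjusted p = 0.0194, limma), each without overlap and without a call. Tsc22d3, which encodes the glucocorticoid-induced leucine zipper protein, lay lower without overlap (-0.25, adjusted p = 0.149). Angptl4 was higher in each iPCKO sample (0.32, adjusted p = 0.0567), and Dusp1 is counted here as well. The median of the list was 0.03, and 4 of the 14 genes lay higher and 4 lower without overlap. Over all tested genes, 18.3% lay higher and 17.1% lower in this way.

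The clock, which also acts on Klf9, Klf10 and Klf15, had 0 of 16 tested genes called in either direction, with a median log2 fold change of -0.05. Clock lay higher (0.40, adjusted p = 0.0126, limma) and Dbp, a clock output gene, lower (-0.56, adjusted p = 0.0759, limma), each without overlap between groups. Nr1d2 and Tef, the most abundant genes of the list beside Clock, lay lower without overlap (-0.42 and -0.29) and without a call. TGF-beta response genes, which rise with Klf10 in many cells, had 0 of 8 called, with a median of 0.19. Smad6 was the one gene of that list whose groups did not overlap (0.26, adjusted p = 0.1, limma), and Ski and Smad7, the other abundant genes beside it, were not called.

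The cofactors through which KLFs act did not pass the thresholds either, with 0 of 10 called and a median log2 fold change of 0.00. Ctbp1, the corepressor of Klf3, had 132.81, 100.16 and 94.81 RPKM in controls and 139.04, 125.97 and 117.97 RPKM in iPCKO samples (0.24, adjusted p = 0.301, limma), and the acetyltransferase gene Crebbp and the deacetylase gene Hdac2, next in level, had log2 fold changes of -0.09 and -0.01. Ubiquitin ligases known to act on KLF proteins had 0 of 8 called, with a median of -0.07. Smurf2, a ligase of TGF-beta signalling, had 25.84, 26.66 and 28.16 RPKM in controls and 22.12, 23.38 and 21.65 RPKM in iPCKO samples (-0.26, adjusted p = 0.0632, limma). Wwp1, a ligase of KLF2 and KLF5, lay lower without overlap by a small amount (-0.14, adjusted p = 0.317).

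Genes known as targets of the members were read in the same way. Of 7 tested targets of KLF2 and KLF4, Aqp1, a water channel of capillaries, was higher in iPCKO samples, with 37.12, 40.19 and 42.8 RPKM in controls and 60.74, 62.92 and 71.37 RPKM in iPCKO samples (log2 fold change 0.70, adjusted p = 0.00231, limma). Thbd, the thrombomodulin gene that KLF2 induces in endothelium, had 50.81, 55.87 and 54.77 RPKM in controls and 48.72, 45.77 and 40.92 RPKM in iPCKO samples (-0.26, adjusted p = 0.112). Nos3, the endothelial nitric oxide synthase gene, lay at 3.73, 3.68 and 3.35 RPKM against 2.93, 3.14 and 3.21 RPKM (-0.21, adjusted p = 0.230). Edn1, the endothelin gene that KLF2 represses, had 1.95, 1.25 and 1.56 RPKM in controls and 2.14, 2.35 and 2.24 RPKM in iPCKO samples (0.49, adjusted p = 0.0917). The groups of these 3 genes did not overlap, but none passed the test. Over the 7 genes, 2 lay higher and 2 lower without overlap (18.3% and 17.1% of all tested genes), and the median was -0.20. The call of Aqp1 was lost without control 2 and without iPCKO 2. S1pr1 and Vcam1 overlapped between the groups.

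Of 8 tested targets of KLF5, Ccnd1, which encodes cyclin D1, was called, with 15.9, 17.41 and 15.1 RPKM in controls and 38.08, 37.65 and 36.09 RPKM in iPCKO samples (log2 fold change 1.21, adjusted p = 8.09e-05, limma). Myh10, Vegfa and Pdgfa, the most abundant of the rest, were not called, and the level of Klf5 overlapped between groups. None of 9 targets of KLF6 was called (median 0.13), and among them Eng, the endoglin gene, had 116.58, 87.95 and 88.62 RPKM in controls and 82.07, 71.91 and 68.19 RPKM in iPCKO samples (-0.39, adjusted p = 0.0869, limma). Col1a1, Mmp14 and Tgfbr2, which are also abundant, had positive fold changes of 0.46, 0.12 and 0.10 without a call. Of 5 tested targets of KLF15, Slc2a4, which encodes the insulin-responsive glucose transporter, was higher, with 2.63, 2.52 and 2.35 RPKM in controls and 5.17, 4.94 and 4.38 RPKM in iPCKO samples (0.92, adjusted p = 0.00108, limma). Bcat2, Prodh and Acss2 overlapped between the groups.

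**Figure D4:**
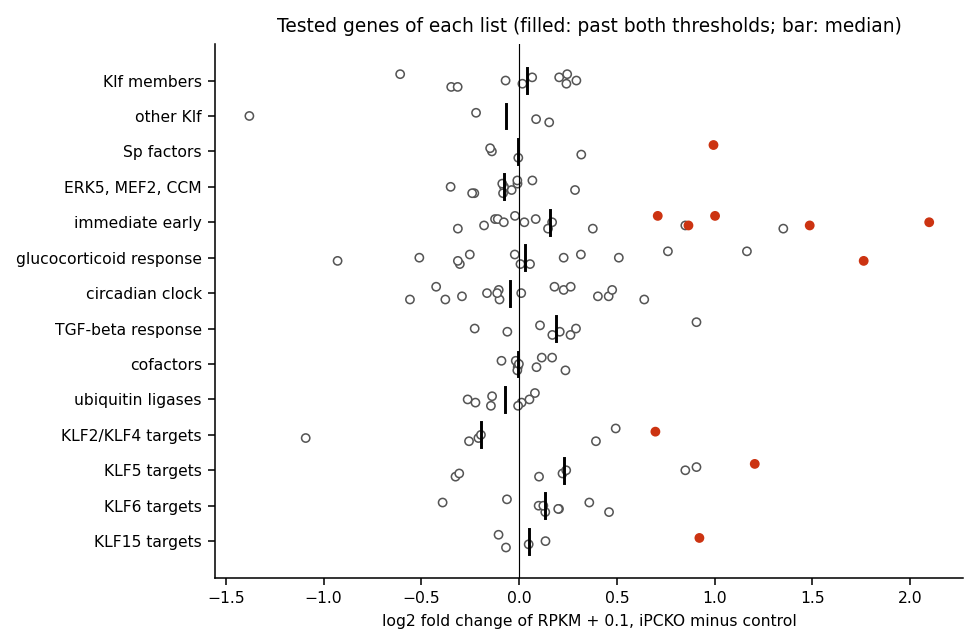
Log2 fold change of RPKM + 0.1, iPCKO minus control, of the tested genes in each list (circles), with the median of the list as a bar; filled red circles passed both thresholds. The members lie between -0.61 and 0.29 with no filled circle. Immediate early genes hold 5 of the filled circles, among them Fosb and Egr3, which passed the filter through their iPCKO samples alone.

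Among Klf genes outside the 10, 4 of 7 found in the tables were tested and none was called. Klf14, a maternally expressed relative of Klf16, had 2.02, 1.89 and 1.56 RPKM in controls and 0.7, 0.94 and 0.38 RPKM in iPCKO samples (log2 fold change -1.38, adjusted p = 0.0131, limma). It passed the filter through its controls alone, and it was called with a pseudocount of 1, after quantile normalization and at an adjusted p-value of 0.05. Klf8, a relative of Klf3, was below the filter, with 0.61, 0.58 and 0.66 RPKM in controls and 0.37, 0.38 and 0.34 RPKM in iPCKO samples. Klf11, Klf12 and Klf16 overlapped between the groups, Klf1 stayed under 1 RPKM, and Klf17 was listed at 0 in all samples. In the related Sp family, Sp6, a factor known from tooth and skin, was called among 5 tested genes, with 18.63, 18.17 and 21.36 RPKM in controls and 43.18, 40.29 and 33.07 RPKM in iPCKO samples (0.99, adjusted p = 0.000998, limma). Sp3 lay lower without overlap (-0.14, adjusted p = 0.262), and Sp1, which binds the same GC boxes as many KLFs, was at 20.93, 20.31 and 20.58 RPKM against 20.01, 21.32 and 20.33 RPKM.

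Related Klf genes, all of them members but Klf11, were also set against each other within each sample, so that depth and a shared shift cancel. The log2 difference Klf4 minus Klf2 was 0.00, -0.91 and -1.02 in controls and -0.31, -0.45 and -0.35 in iPCKO samples, which differed by 0.28 (exact two-sided permutation test, p = 0.4). The difference Klf7 minus Klf6 was -1.35, -2.05 and -1.94 in controls and -1.14, -1.72 and -1.59 in iPCKO samples, with a change of 0.30 (exact p = 0.4). For Klf13 minus Klf9 the change was -0.18 (exact p = 0.3), and for Klf10 minus Klf11 it was 0.14 (exact p = 0.3). All 4 adjusted p-values were 0.4, and 3 samples against 3 cannot give less than 0.1, so that this test could not have reached 0.05.

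Several members are also expressed in cells other than pericytes, and RNA of such cells was present. Endothelial markers, which include Egfl7, Cldn5 and Cdh5, summed to 214.5 to 225.6 RPKM over 10 genes in controls and 208.9 to 227.5 RPKM in iPCKO samples, with none of them at 0 and 1 of 10 called (Kdr, log2 fold change 0.77). Leukocyte markers summed to 60.9 to 74.8 RPKM in controls and 102.8 to 200.4 RPKM in iPCKO samples, with 6 of 10 called higher, and neutrophil markers to 87.1 to 129.2 RPKM and 448.9 to 4949 RPKM, with 6 of 10 called higher. None of the leukocyte or neutrophil markers was at 0. Epithelial markers summed to 571.2 to 657 RPKM in controls and 833.4 to 884.8 RPKM in iPCKO samples (1 of 9 tested called, Sftpb), and platelet markers to 12.99 to 15.14 RPKM and 34.75 to 80.78 RPKM (7 of 8 called). Leaving out 1 sample moved these counts. Leukocyte markers called numbered 1 without control 1 or control 3, 3 without iPCKO 2 and up to 7 without iPCKO 1. Neutrophil markers called numbered 1 without any one of the controls or iPCKO 2, 4 without iPCKO 3 and 10 without iPCKO 1. Platelet markers called ranged from 4 (without iPCKO 2) to 7, and 3 passed where 1 RPKM was required in all 6 samples. Gp5, Gp9 and Treml1, like the neutrophil gene Mmp9, reached the filter through their iPCKO samples alone. Itga2b was under 1 RPKM in controls 1 and 2 (0.74 and 0.99 RPKM). The call of Kdr was lost without control 3, iPCKO 2 or iPCKO 3, and that of Sftpb without any one sample other than iPCKO 1. Of the other lists, 2 of 8 smooth muscle markers were called higher and 1 lower, and 0 of 7 fibroblast, 0 of 3 lymphocyte and 0 of 7 erythrocyte markers were called. Pericyte markers were called in both directions, 3 of 10 higher (Cspg4, Kcnj8 and Abcc9) and 2 lower (Notch3 and Rgs5), which became 2 to 3 higher and 1 to 2 lower when single samples were left out. The part of these cells in the levels of the members was not tested. The paper reports that endothelial and epithelial transcripts were depleted by the pulldown. Whether the RNA of these cell types came from tagged cells or was carried over from untagged cells was not tested. A different number of cells of a type cannot be told apart from a different amount of RNA per cell in these samples.

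The fold changes of the members that came nearest to the thresholds were followed through the other settings. Klf6 was called in 3 of 19 (sample weights, without control 1, and the fit with a replicate block) and Klf2 in 2 of 19 (sample weights and without control 1). Klf6 stayed between -0.84 and -0.46 and Klf2 between -0.67 and -0.19 on the log2 scale. With sample weights, which give less weight to samples that deviate from their group, both were called (Klf6 -0.67, adjusted p = 0.00165, and Klf2 -0.54, adjusted p = 0.00504, limma). That fit called 13.2% of all tested genes, against 6.79% in the main fit. In the 4 libraries without Y-linked RNA, which leave control 2 as the single control, assumed to vary like the iPCKO samples, Klf2 was at -0.67 (adjusted p = 0.0488) and Klf6 at -0.77 (adjusted p = 0.0910, limma), and neither was called. Klf7 stayed between -0.40 and -0.21 and Klf10 between 0.23 and 0.35, and no setting took either past 0.5. With sample weights, the adjusted p-values of Klf7, Klf10 and Klf9 were 0.00361, 0.00388 and 0.00663 (limma), with changes short of 0.5.

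**Figure D5:**
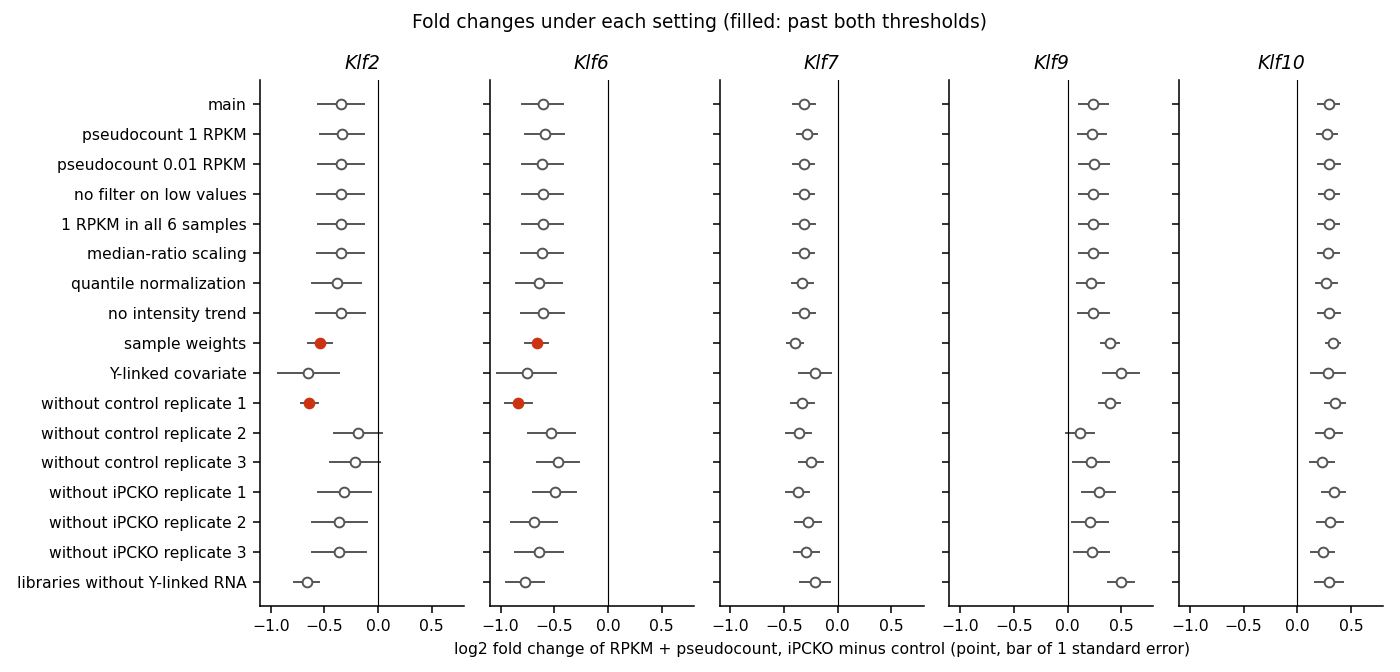
Log2 fold change, iPCKO minus control, of Klf2, Klf6, Klf7, Klf9 and Klf10 (panels) under the main and alternative settings without a replicate block (rows); bars are 1 standard error and filled red points passed an adjusted p-value of 0.01 and 0.5 in size. Of the settings shown, Klf2 and Klf6 are filled with sample weights and without control 1, and all points of a panel keep their side of 0.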

How the data were processed

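The authors made stranded total RNA libraries (TruSeq, paired-end), used TopHat for mapping to mm10 (GRCm38) and HTSeq 0.6.1 for counting, and ran DESeq2 on the counts. The authors deposited RPKM per Ensembl gene, 1 table per sample. The exon length and strand setting used are not given in the sources used here. Dividing by length and depth hides the reads behind a value, so no count test was run. Symbols and coordinates came from GENCODE M21 (21375 of 21603 genes) and promoters from RefSeq. Genes that reached 1 RPKM in 3 or more of the 6 samples were tested with limma on log2(RPKM + 0.1), with an intensity trend, no block and Benjamini-Hochberg adjustment. The script was tested on simulated data. Fold changes on this scale understate the change of low genes. Depth came from whole-read steps; 75.8% to 77.4% of low values lay within 0.02 of a whole read. Samples were grouped by their labels. Members and lists were chosen with earlier results of these data known. The genes named were all members, other Klf and Sp genes, the deleted genes, and from each list those called and up to 3 further genes of highest mean; other genes without overlap were named after their values were seen, as were the 2 motifs MEF2 and CArG. The promoter windows printed and the genes shown for control 1 were also picked after their values were seen. The fits ran in limma 3.58.1 under R 4.3.3. Tables, exact tests and figures were made in Python 3.11.15 (scipy 1.17.1, pandas 2.3.3, matplotlib 3.10.9, numpy 2.4.6).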

Additional observations from a re-analysis of the deposited data

How the results depend on the processing

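Of 10 members, 9 kept their direction under all 19 alternatives; Klf3 reversed with quantile normalization (-0.016 on the log2 scale), a Y-linked covariate (-0.007), without control 3 (-0.035), without iPCKO 3 (-0.063, with 0.093 at the other end, without iPCKO 1) and in the libraries without Y-linked RNA (-0.003), a choice made after the data were seen. With the replicate number as a block, 1 member was called (Klf6, -0.61, adjusted p = 0.00741, limma) and 922 genes in all. Deviations of same-numbered samples from their group means correlated at 0.24, 0.09 and 0.02, and control 2 correlated best with iPCKO 3 (0.27). With 3 samples per group, such correlations cannot show whether the numbers pair the samples. The block changed no other call among the members, and Klf14, which is no member, was called with it. Sample weights called 2 members, and leaving out each sample in turn called 0 to 2. Over all genes, the count of 817 became 1590 with sample weights, 119 with a Y-linked covariate, 31 in the libraries without Y-linked RNA, 1313 at an adjusted p-value of 0.05 and 411 at an absolute log2 fold change above 1, and 382 (without control 3) to 899 (without iPCKO 1) with each sample left out; it was 414 without iPCKO 2 and 499 without iPCKO 3. The causes were not tested. The 4 differences between related Klf genes kept their sign in all alternatives run. With 3 samples per group, the 95% intervals of all members but Klf3, Klf4 and Klf13 reach past 0.5 on the log2 scale, so changes of that size lie within what these data allow.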
